A study of Mus musculus with 14 samples.

Results

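Expression of the 10 genes of leukotriene and prostaglandin synthesis Alox5, Alox5ap, Lta4h, Ltc4s, Alox15, Ptgs1, Ptgs2, Ptges, Hpgds and Tbxas1 was examined in sorted mouse lung macrophages. The genes were chosen by name, and all 10 were found among the 43432 genes of the deposited table. RNA-seq had been run on cells of male 129S1 mice, 10 to 12 weeks old, that received bleomycin (labelled as 3 U/k) or water through the trachea. Bleomycin is a DNA-damaging drug that injures the lung and leads to fibrosis. Every library came from lung cells carrying the lectin SiglecF together with the integrin CD11c, a pair of surface proteins found on alveolar macrophages. The cells were further sorted by a high or low level of MHC class II (MHCII), which presents peptides to helper T cells. MHCII-high and MHCII-low cells were each profiled 2 and 4 weeks after bleomycin, with 3 libraries per group. The control group holds 2 libraries of MHCII-low cells from mice given water, numbered 1 and 3 in the labels. Control cells with high MHCII are not analysed here, so bleomycin and control could be compared in MHCII-low cells only. The labels do not say that replicates were separate mice, so p-values measure the spread between these libraries, which may be technical.

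Both pathways start from arachidonic acid released from membranes by phospholipases. In the leukotriene branch, the lipoxygenase encoded by Alox5 works with its membrane partner FLAP (Alox5ap) to make leukotriene A4, from which Lta4h makes the neutrophil attractant leukotriene B4 and Ltc4s makes the bronchoconstrictor leukotriene C4. In the prostanoid branch, the cyclooxygenases COX-1 (Ptgs1, usually constitutive) and COX-2 (Ptgs2, usually inducible) make prostaglandin H2, which Ptges, Hpgds and Tbxas1 turn into prostaglandin E2, prostaglandin D2 and thromboxane A2. Alveolar macrophages are a known source of leukotrienes and prostanoids in the lung.

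The genes lie on chromosomes 1, 2, 5, 6, 10 and 11, with Alox5, Hpgds and Tbxas1 on chromosome 6 and Ptgs1 and Ptges on chromosome 2. In the file's coordinates, on build GRCm38, Alox5 spans chr6:116410077-116461178 on the minus strand and Alox5ap chr5:149264767-149288153 on the plus strand. Ptgs1 spans chr2:36230426-36252272 and Ptgs2 chr1:150100031-150108227, both on the plus strand. The values count reads over all exons of a gene. According to GENCODE M21, 4 of the genes share exon bases with a gene on the opposite strand: Alox5ap shares 189 bases, Ltc4s 268, Ptgs1 148 and Tbxas1 144. Whether counting used the strand is not given in the sources used here, so reads of these stretches cannot be told apart. Of the opposite-strand genes, only Gm26542, which overlaps Ltc4s, has values in the deposited table. It was at 19.3 to 133.9 normalized counts, beside 131.8 to 438.2 for Ltc4s, whose total exon length is 736 bases.

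RefSeq (GRCm38.p6) gave the 150 bases before the start of 8 of the 10 genes, all except Alox5ap and Alox15. For Ltc4s, Hpgds, Tbxas1 and Ptges, that start lies inside the gene's span in the file, by less than the window's length for Ltc4s alone. The whole windows of Hpgds, Tbxas1 and Ptges lie inside the span, those of Tbxas1 and Ptges far inside. The windows of Alox5 and Ptgs1 are shown because these genes passed the test below, and that of Ptgs2 beside its constitutive counterpart. They read 5′ to 3′ on the gene's strand and end at the base before the start. Capitals mark GGGCGG, the core that Sp1 binds, and AGGAAGT, a core that ETS factors such as the macrophage regulator PU.1 bind.
Alox5, chr6:116461179-116461328, minus strand: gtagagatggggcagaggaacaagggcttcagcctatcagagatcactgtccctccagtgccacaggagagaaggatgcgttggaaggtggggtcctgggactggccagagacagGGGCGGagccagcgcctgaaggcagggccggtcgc
Ptgs1, chr2:36230276-36230425, plus strand: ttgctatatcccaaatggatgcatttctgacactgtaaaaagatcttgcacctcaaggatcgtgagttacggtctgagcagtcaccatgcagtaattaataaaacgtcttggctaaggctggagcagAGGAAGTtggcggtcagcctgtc
Ptgs2, chr1:150099881-150100030, plus strand: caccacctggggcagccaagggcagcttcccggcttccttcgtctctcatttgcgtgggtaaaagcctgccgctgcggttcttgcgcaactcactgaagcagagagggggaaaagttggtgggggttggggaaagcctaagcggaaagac

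The windows had a GC content of 63.3% for Alox5, 46.0% for Ptgs1 and 59.3% for Ptgs2, against a median of 54.0% over 32851 mouse promoters. The TATA box TATAAA and the E-box CACGTG were searched beside GGGCGG and the ETS core AGGAAGT, on both strands, the last after the windows had been read. GGGCGG was present once in Alox5, 35 bases before the start, and in Ptges, and 28.6% of all promoters held it. AGGAAGT began 23 bases before the start of Ptgs1 and was also in Ltc4s and Hpgds, against 5.1% of all promoters. TATAAA was found in Tbxas1 alone of the 8 windows (7.6% of all promoters), and CACGTG in none of them (4.3%). Ptgs2 and Lta4h held none of the 4. These matches describe letters in a window and do not show binding.

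The level of each gene, in normalized counts per kilobase of exon, spanned more than 2 orders of magnitude. The length used was the total exon length deposited for each gene, from 736 bases for Ltc4s to 9094 for Tbxas1. Which of these exons the cells used was not examined, so the order of the genes depends on the annotation. Alox5ap was highest with 8050.3 ± 1785 (SD, n = 14 libraries), a level above 98.85% of the 18074 genes with a read in 7 or more libraries. Ptgs1 followed with 1949.7 ± 702, above 96.1% of these genes, and Alox5 with 1612.7 ± 305, above 95.4%.

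Tbxas1, the thromboxane synthase, was at 596 ± 79.8 normalized counts per kilobase. The enzymes that share leukotriene A4 as their substrate stood close together, Lta4h at 425 ± 79.6 and Ltc4s at 356 ± 130. Hpgds was at 197 ± 64.3, and the lowest were Ptges at 43.6 ± 21.6, Ptgs2 at 38.8 ± 40.5 and Alox15, a lipoxygenase that oxygenates arachidonate at another carbon, at 29.7 ± 24.6. The ranges over libraries of these 3 overlapped, and so did those of Ptgs1 and Alox5. At the low end, Alox15 rested on 0 to 339 reads per library and Ptges on 24 to 751, whereas Alox5 rested on at least 2780.

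**Figure D1:**
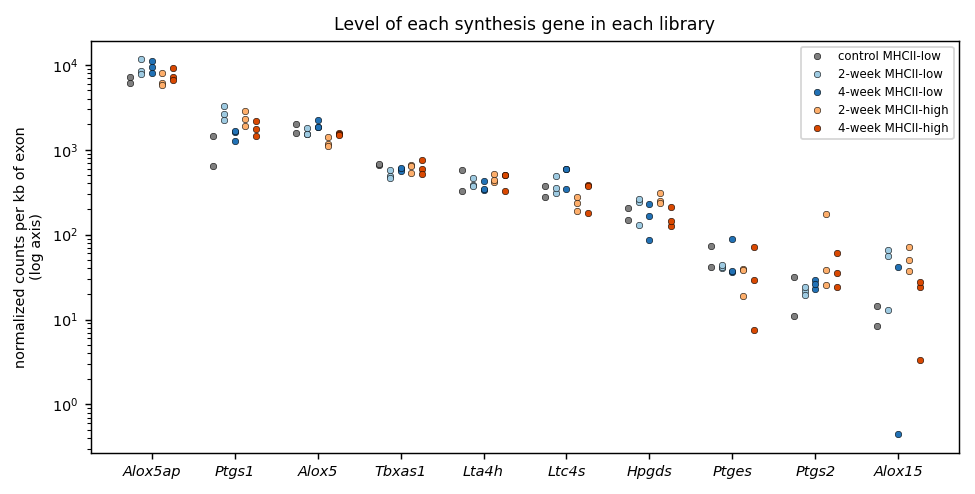
Normalized counts per kilobase of exon (log axis) of the 10 synthesis genes, ordered by their mean, with 1 point per library coloured by group; the value of 0 of Alox15 in 4-week MHCII-low replicate 1 cannot be drawn on a log axis. Alox5ap lies highest and Ptges, Ptgs2 and Alox15 lie lowest.

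Within pairs of enzymes, the constitutive cyclooxygenase made up nearly all of the cyclooxygenase level. Ptgs1 held 93.0% to 99.4% of the summed Ptgs1 and Ptgs2 level per kilobase over the 14 libraries, with the lowest share in 2-week MHCII-high replicate 1. Alox5 held 94.2% to 100% of the summed Alox5 and Alox15 level. Tbxas1 exceeded Ptges in every library, with 87.1% to 99.0% of their sum. All these shares rest on the same total exon lengths.

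Depth and composition differed between libraries. Recovered reads ranged from 15106415 to 88059630, and the share of mitochondrial rRNA from 3.12% to 28.99%. All 14 alveolar macrophage markers were read, with a summed level of 418331 to 734493 normalized counts. MHCII-high cells stood apart from MHCII-low cells in markers of several cell types: in the mean of both times, 7 of 14 alveolar macrophage markers were lower and none higher, and 8 of 12 markers of monocyte-derived or interstitial macrophages were higher and none lower. All 6 B lymphocyte markers, 7 of 10 dendritic cell markers, 6 of 13 early response genes, 3 of 12 epithelial markers and 1 of the 7 T and NK lymphocyte markers that passed the filter on low values were higher as well, and 1 epithelial marker was lower. No marker of endothelium, fibroblasts, neutrophils, mast cells and basophils, eosinophils or platelets passed the threshold in that comparison. In bulk RNA, fewer cells of a type and less RNA per cell cannot be told apart, which holds for every difference below.

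MHCII-high and MHCII-low cells after bleomycin were compared first. Only Alox5, the enzyme that starts leukotriene synthesis, differed past the threshold, and it was lower in MHCII-high cells. At 2 weeks Alox5 was at 4743.9, 4598.9 and 5749.7 normalized counts in MHCII-high replicates 1, 2 and 3, and at 6220.0, 6350.4 and 7453.6 in MHCII-low replicates 1, 2 and 3. At 4 weeks it was at 6447.7, 6249.1 and 6038.1 in MHCII-high cells and at 9143.3, 7554.0 and 7599.6 in MHCII-low cells. At each time all 3 MHCII-high libraries lay below all 3 MHCII-low libraries, but the 4-week MHCII-high libraries overlapped the 2-week MHCII-low ones.

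Over both times the log2 fold change of Alox5 was -0.39 ± 0.11 (SE; limma on log2(value + 1), all 14 libraries in 1 fit, adjusted p = 0.032 over 17390 genes). That was 1 of 10 synthesis genes, against 7.21% of all genes tested in this comparison. At single times the differences were -0.41 (adjusted p = 0.182) and -0.37 (adjusted p = 0.257). The call was lost with the mitochondrial rRNA share as a covariate (-0.37, adjusted p = 0.197) and without filtering low genes (adjusted p = 0.0509). It was also lost without any one of 2-week MHCII-low replicate 3, 4-week MHCII-low replicates 1 and 3, 2-week MHCII-high replicates 1 and 2 and 4-week MHCII-high replicate 3 (adjusted p 0.0501 to 0.0872).

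The sorted populations differed in more than MHCII beside this result. The summed level of the 14 alveolar macrophage markers was 418331 to 511711 in MHCII-high and 532939 to 734493 in MHCII-low cells after bleomycin. That of the 12 monocyte-derived or interstitial macrophage markers was 37316 to 78553 in MHCII-high and 19053.1 to 36893 in MHCII-low cells. The 10 dendritic cell markers summed to 1269.4 to 2770.6 in MHCII-high and 115.1 to 275.5 in MHCII-low cells. The 6 B lymphocyte markers summed to 804.5 to 3829.8 and 40.5 to 2186.7. The dendritic cell sums did not overlap. The B lymphocyte sums overlapped through 4-week MHCII-low replicate 1 alone, where Ighm gave 2126.7 of the 2186.7. The other MHCII-low libraries after bleomycin summed to 40.5 to 219.2. The mitochondrial rRNA share was 8.12% to 28.99% in MHCII-high and 3.12% to 23.1% in MHCII-low cells. The part of these differences in the lower Alox5 was not tested beyond the covariate fit above.

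Alox5ap, the partner of Alox5, and Ltc4s had negative fold changes that did not pass the threshold. At 2 weeks Alox5ap was at 5261.0, 4988.8 and 6805.3 normalized counts in MHCII-high cells and at 7155.3, 6684.8 and 9846.0 in MHCII-low cells. At 4 weeks it was at 6114.7, 5687.5 and 7913.7 against 9560.1, 6772.7 and 7970.6. The groups overlapped at both times, by 1 MHCII-high library at each, and the log2 fold change over both times was -0.38 ± 0.13 (adjusted p = 0.0835). DESeq2 on the recovered reads (adjusted p = 0.0465) and limma-voom (0.0396) put it past the threshold, as did leaving out 4-week MHCII-high replicate 3 (0.0428).

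Ltc4s was at 138.9, 172.8 and 204.2 normalized counts in 2-week MHCII-high cells, all below the 230.5, 259.6 and 365.6 of 2-week MHCII-low cells. At 4 weeks it was at 281.0, 131.8 and 272.6 against 438.2, 254.9 and 435.0, and the groups overlapped. Its log2 fold change over both times was -0.73 ± 0.27 (adjusted p = 0.113; 0.047 with DESeq2). Across the 14 libraries, Ltc4s and the mitochondrial rRNA share had a Pearson r of -0.75 and Alox5ap and that share -0.62, given as a description; the points share their library's scale factor. Lta4h, which makes leukotriene B4, was at 865.9 to 1076.9 normalized counts in 2-week MHCII-high and 770.7 to 948.2 in 2-week MHCII-low cells, and at 681.6 to 1040.2 against 702.0 to 891.9 at 4 weeks. Its groups overlapped at both times.

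Of the cyclooxygenases, Ptgs2 had a higher mean in MHCII-high than in MHCII-low cells at both times, without passing the threshold. In 2-week MHCII-high cells it was at 796.0, 115.5 and 175.5 normalized counts, and at 98.4, 109.9 and 88.6 in 2-week MHCII-low cells, so the groups did not overlap but 1 library was far above the others. At 4 weeks it was at 274.7, 109.8 and 161.9 against 135.5, 104.9 and 120.5, with overlap. The log2 fold change was 1.35 ± 0.61 at 2 weeks (adjusted p = 0.285) and 0.93 ± 0.43 over both times (adjusted p = 0.215).

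With DESeq2 the Ptgs2 difference passed the threshold at 2 weeks (adjusted p = 0.038) and over both times (0.0379). The high library, 2-week MHCII-high replicate 1, also had the highest summed level of the 11 mast cell and basophil markers, 1004.4 against 31.0 to 368.6 in the other 13 libraries. Of those markers 5 of 11 passed the filter on low values. In that library Kit (424.5 normalized counts), Hdc (481.1) and Gata2 (93.1) were each higher than in any other. The rest of the list was at or near 0 there. The mast cell protease Cpa3 was at 3.1 and Ms4a2 at 2.6, and Cma1, Mcpt4, Mcpt8, Tpsb2, Tpsab1 and Fcer1a were at 0. The same library had the highest summed level of the 6 endothelial markers, 6806.2 against 1766.6 to 4862.5. Its sum of the 9 T and NK lymphocyte markers was also the highest, 784.8 against 91 to 517.6. Of the 10 neutrophil markers, Retnlg (213.5), Ngp (294.3), S100a9 (153.3) and Mmp9 (224.8) were each highest in that library. S100a8, Csf3r, Cxcr2, Mmp8, Ly6g, Camp and the neutrophil sum (14819.8) were not. The part of other cells in the Ptgs2 level was not tested. Without that library the 2-week log2 fold change was 0.53 and that over both times 0.51.

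Ptgs1 stood at 8975.4, 7364.4 and 11190.1 normalized counts in 2-week MHCII-high cells, within reach of the 10289.9, 8775.6 and 12835.9 of 2-week MHCII-low cells. At 4 weeks it was at 5621.4, 8455.1 and 6722.2 against 4934.4, 6326.6 and 6468.4. The groups overlapped at both times, and the 95% interval of the log2 fold change over both times was -0.35 to 0.36.

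The synthases that act on prostaglandin H2 overlapped as well, with 1 exception. Ptges, the prostaglandin E synthase, was at 74.5 to 154.9 normalized counts in 2-week MHCII-high cells, below the 161.1 to 172.9 of 2-week MHCII-low cells. At 4 weeks Ptges ranged from 29.2 to 282.4 against 141.2 to 349.0. Hpgds, the prostaglandin D synthase of blood cells, was at 856.0 to 1123.4 against 465.8 to 936.3 at 2 weeks, and at 451.6 to 767.2 against 309.6 to 828.4 at 4 weeks. Tbxas1 was at 4865.9 to 6020.2 against 4194.3 to 5219.2 at 2 weeks, and at 4744.5 to 6834.1 against 5145.2 to 5471.5 at 4 weeks.

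At 2 weeks 0 of the 10 genes passed the threshold, against 2.87% of all genes tested, and 3 had an unadjusted p under 0.05 (Alox5, Alox5ap and Ptgs2), against 15.4%. Groups did not overlap for 4 of the 10 (Alox5, Ltc4s, Ptgs2 and Ptges), against 21.1% of all genes. At 4 weeks 0 passed (2.5% of all genes), 1 had an unadjusted p under 0.05 (15% of all genes) and 1 did not overlap (16.4%), in each case Alox5. Over both times 4 had an unadjusted p under 0.05 (Alox5, Alox5ap, Ltc4s and Ptgs2), against 21.2% of all genes. The median log2 fold change of the 10 genes over both times was 0.09, beside 0.02 for all genes. The test of whether the MHCII difference changed between 2 and 4 weeks (the interaction) called none of the 10 and 0% of all genes with limma (smallest adjusted p among the 10 0.933). None of the 10 and 987 of all genes (5.68%) had an unadjusted p under 0.05, and other tools and settings called 0 to 60 genes.

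**Figure D2:**
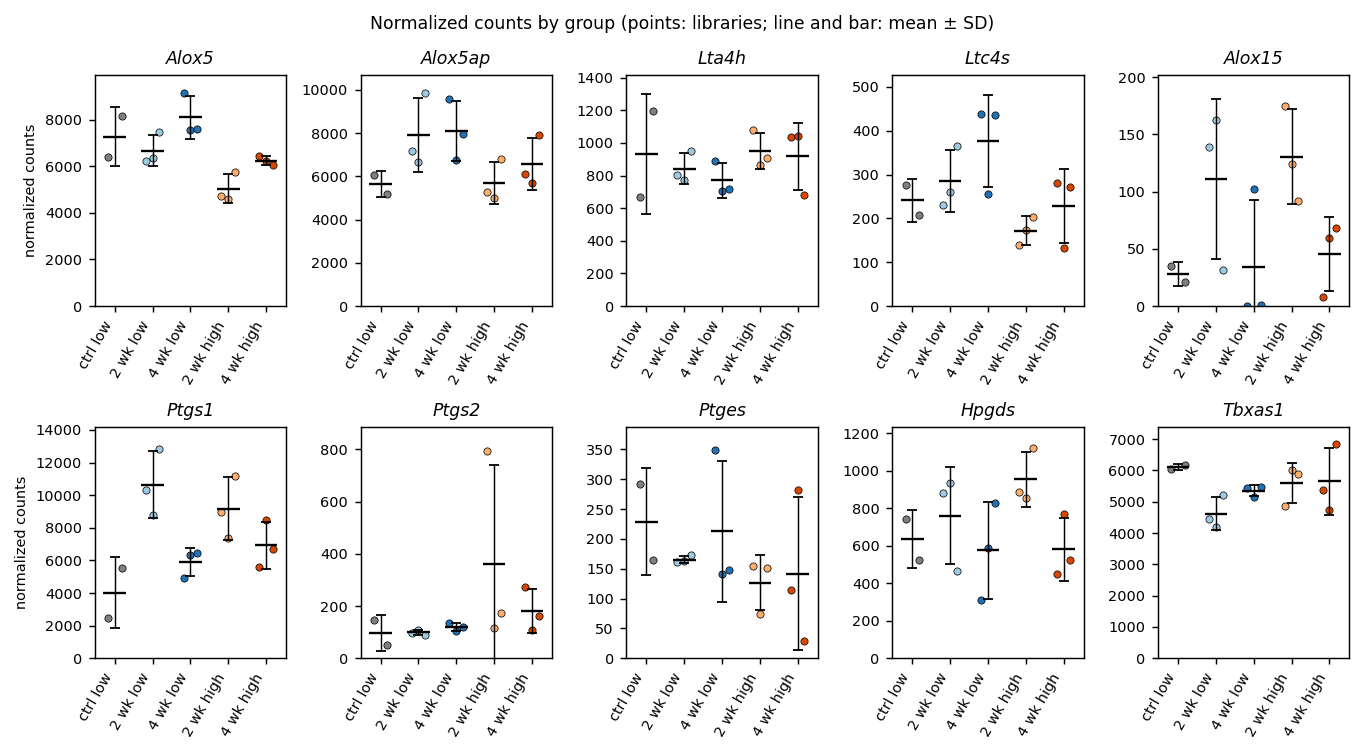
Normalized counts of each synthesis gene by group; points are libraries, thick lines group means and bars the SD (2 control libraries, 3 in each other group), with axes starting at 0 so that the bars of Ptgs2 in 2-week MHCII-high and Alox15 in 4-week MHCII-low cells are cut at 0. Ptgs1 is highest at 2 weeks in both MHCII groups, Alox5 is lower in MHCII-high than in MHCII-low cells of the same time, and 1 Ptgs2 library stands at 796.0.

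MHCII-low cells after bleomycin were compared with MHCII-low cells of water-treated controls. Ptgs1, which encodes COX-1, rose at 2 weeks and was the only one of the 10 genes past the threshold. It was at 10289.9, 8775.6 and 12835.9 normalized counts in 2-week MHCII-low replicates 1, 2 and 3 and at 2492.6 and 5565.7 in control replicates 1 and 3. All 3 libraries after bleomycin lay above both controls, but the controls differed from each other by more than their lower value. The log2 fold change was 1.50 ± 0.27, a 2.82-fold higher level (limma, adjusted p = 0.00267). Without control replicate 1, which had the lower Ptgs1 level and the most reads of all libraries, it was 0.92 (adjusted p = 0.201).

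At 4 weeks Ptgs1 was at 4934.4, 6326.6 and 6468.4 normalized counts, and the lowest of these lay below control replicate 3. The log2 fold change against control was 0.66 ± 0.27 (adjusted p = 0.738), and 0.08 without control replicate 1. Between 2 and 4 weeks Ptgs1 in MHCII-low cells had a log2 fold change of -0.84 ± 0.24 (adjusted p = 0.139), with all 4-week libraries below all 2-week libraries. That difference passed the threshold with DESeq2 (adjusted p = 0.0451) and when only these 2 groups entered the fit (0.0335). The group order of the mean Ptgs1 level was 2-week MHCII-low, 2-week MHCII-high, 4-week MHCII-high, 4-week MHCII-low and control, and each group overlapped the next in its libraries.

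Cell type markers moved beside the higher Ptgs1 at 2 weeks. Of 12 markers of monocyte-derived or interstitial macrophages, 7 were higher in 2-week MHCII-low cells than in control and none lower, with sums of 30914.3 to 36893 against 17628.2 to 20064.3 normalized counts. Of 14 alveolar macrophage markers 2 were higher and none lower, with sums of 635975 to 734493 against 458418 to 495169. The 10 neutrophil markers summed to 14256.4 to 15706.7 against 5182.5 to 9316.9, and 2 of the 8 that passed the filter on low values were higher. Nearly all of each sum came from Csf3r, Cxcr2 and Mmp8. Cxcr2 was at 3460.2 to 4783.6 against 583.7 and 1109.8, and Mmp8 at 5061.8 to 5818.5 against 913.4 and 1384.4. S100a8 did not overlap the controls either, whereas Csf3r, S100a9, Retnlg, Mmp9 and Ngp did. Ly6g and Camp did not exceed 2.2 in these libraries. Structural cell markers were read as well. The 6 endothelial markers summed to 2996.8 to 4862.5 against 1828.6 to 2478.2, with 1 higher (Vwf), and the 7 fibroblast markers to 528.6 to 813.9 against 202.2 to 244.3, with none past the threshold. Of 12 epithelial markers 2 were higher (Cdh1 and Sftpc), while the sums of 10522.9 to 17192.5 and 13703.1 to 23028.3 overlapped. Megakaryocytes and platelets are another source of COX-1: their 9 markers summed to 42.5 to 131.6 against 108.5 to 154.3. Of the 13 early response genes 2 were lower (Hspa1a and Hspa1b) and none higher, with sums of 31828 to 55696.3 against 41027.2 to 47981.5. The mitochondrial rRNA share was 3.42% to 18.3% against 21.7% and 24.1%. With that share as a covariate, Ptgs1 still passed the threshold, as 1 of the 10 genes. The part of these differences in the Ptgs1 result was not tested beyond that fit.

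Among the other genes, Alox5ap was at 7155.3, 6684.8 and 9846.0 normalized counts at 2 weeks and 9560.1, 6772.7 and 7970.6 at 4 weeks, above both controls (6063.1 and 5199.8) in all 6 libraries. Its log2 fold change was 0.47 ± 0.21 at 2 weeks (adjusted p = 0.342) and 0.51 ± 0.21 at 4 weeks (adjusted p = 0.726). Alox5 itself was at 6384.5 and 8169.1 in the controls, and both bleomycin groups overlapped them.

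Tbxas1 was at 4443.5, 4194.3 and 5219.2 normalized counts at 2 weeks, below the controls (6039.8 and 6162.3), with a log2 fold change of -0.41 ± 0.18 (adjusted p = 0.337). At 4 weeks it was at 5443.8, 5145.2 and 5471.5, again below both. These comparisons share the 2 control libraries. The control levels of Lta4h (670.0 and 1193.2), Ltc4s (276.2 and 206.6), Ptgs2 (146.9 and 49.9), Ptges (292.5 and 165.3) and Hpgds (743.6 and 526.0) overlapped both bleomycin groups.

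In the 2-week comparison 1 of 10 genes passed the threshold, against 1.91% of all genes, 3 had an unadjusted p under 0.05 (Ptgs1, Alox5ap and Tbxas1; 12.7% of all genes) and these 3 did not overlap, against 35.3% of all genes. In the 4-week comparison 0 passed (0.046% of all genes), 2 had an unadjusted p under 0.05 (Alox5ap and Ptgs1; 6.12% of all genes) and 2 did not overlap (Alox5ap and Tbxas1; 27.4% of all genes). Only 2 libraries stand on the control side of these counts.

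**Figure D3:**
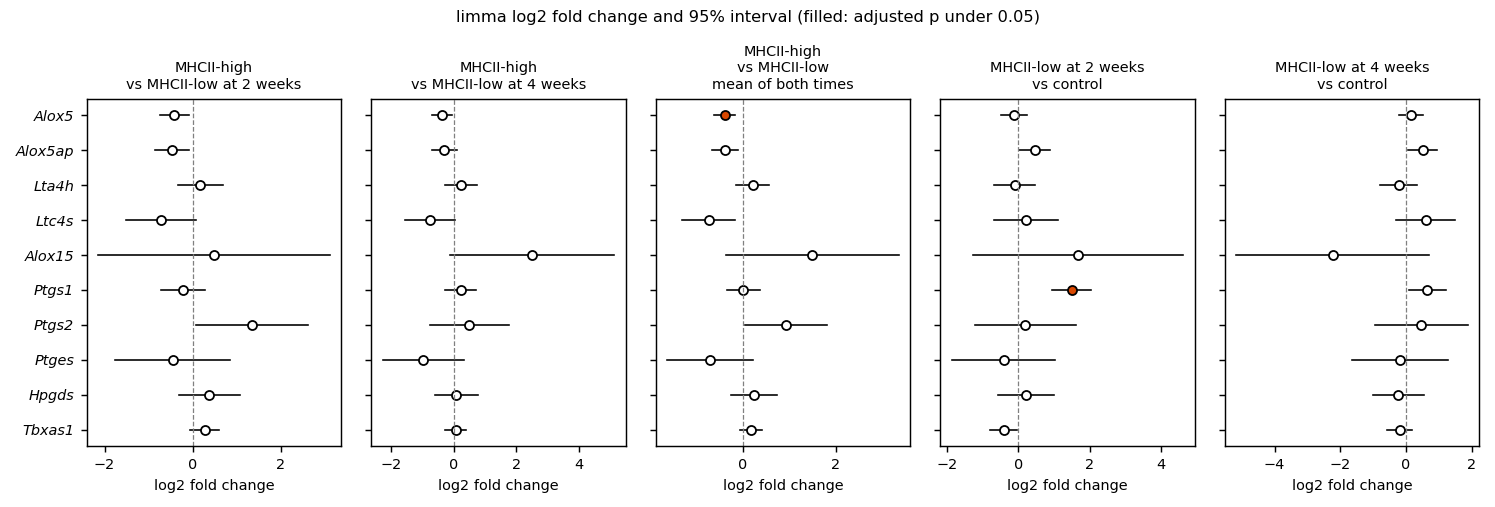
Log2 fold change (limma, log2(value + 1) scale) and its 95% interval for each synthesis gene in 5 comparisons, each panel with its own axis; filled points passed an adjusted p of 0.05. Alox5 in the mean of both times and Ptgs1 at 2 weeks against control are the filled points, and the interval of Alox15 is the widest in each panel.

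Alox15 varied widely among libraries of the same group. In MHCII-low cells it was at 138.7, 162.4 and 31.4 normalized counts at 2 weeks and at 0, 102.0 and 1.1 at 4 weeks. In MHCII-high cells it was at 174.4, 124.5 and 92.1 at 2 weeks, above the 8.3, 59.6 and 68.2 at 4 weeks, and the controls stood at 35.4 and 20.7. The library at 0 could have missed up to 2.57 normalized counts, the worth of 3 of its reads.

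Between 4 and 2 weeks in MHCII-low cells, the log2 fold change of Alox15 was -3.91 ± 1.26 (adjusted p = 0.245), with overlap. It became -5.96 (adjusted p = 0.00587) without 4-week MHCII-low replicate 2, which left 2 libraries of 0 and 1 read, so that its size depends on the 1 added before taking logs. The same omission moved the 4-week high-minus-low log2 difference of Alox15 from 2.50 (adjusted p = 0.364) to 4.55 (adjusted p = 0.0279). Over all other settings run, this omission included, the first of these values ranged from -5.96 to -1.23 and the second from 0.36 to 4.55. The group means in MHCII-low cells were 110.83 at 2 weeks and 34.37 at 4 weeks, beside 45.37 in 4-week MHCII-high cells. Alox15 is also known in eosinophils, which carry SiglecF too. Of the other 6 genes in the eosinophil list, the granule genes Prg2 and Prg3 were at 0 in all libraries and Epx did not exceed 25.5 normalized counts. The eotaxin receptor Ccr3 was read in all libraries at 17.0 to 197.1, with its highest level in 2-week MHCII-high replicate 1, and Il5ra was at 0 to 74.9. The 6 listed genes summed to 2356.7 to 3087.7 in 2-week and 1771.8 to 1875.4 in 4-week MHCII-low cells. Nearly all of each sum came from Siglece, at 2294.6 to 3018.3 and 1713.4 to 1855.1. The sums therefore describe Siglece and cannot be read as a level of eosinophils. The part of eosinophils in the Alox15 level was not tested.

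In MHCII-high cells, Hpgds was at 884.0, 856.0 and 1123.4 normalized counts at 2 weeks and at 451.6, 767.2 and 522.1 at 4 weeks, without overlap. Its log2 fold change was -0.74 ± 0.34 (adjusted p = 0.32). Alox5 had higher values at 4 than at 2 weeks at both MHCII levels without overlap, with log2 fold changes of 0.32 ± 0.15 in MHCII-high (adjusted p = 0.363) and 0.28 ± 0.15 in MHCII-low cells (adjusted p = 0.776). From 2 to 4 weeks, 0 of the 10 genes passed the threshold in MHCII-low cells, against 0.857% of all genes, and 0 in MHCII-high cells, against 1.07%. In MHCII-low cells 2 did not overlap (Alox5 and Ptgs1; 14% of all genes) and 2 had an unadjusted p under 0.05 (Alox15 and Ptgs1; 7.48%). In MHCII-high cells 3 did not overlap (Alox5, Alox15 and Hpgds; 15% of all genes) and 1 had an unadjusted p under 0.05 (Hpgds; 14%).

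The genes around the synthesis enzymes were taken from lists of arachidonate release, other synthases, breakdown, transport and receptors. Of 56 such genes 54 were in the table and 42 passed the filter on low values. Over both times 3 of the 42 were higher in MHCII-high cells (5% of all genes) and 5 lower (2.21% of all genes). The higher genes were Hpgd, which inactivates prostaglandins, Cysltr1, a receptor of cysteinyl leukotrienes, and Ptgir, the prostacyclin receptor. The lower genes were Fpr2, a receptor of lipoxin A4 and formyl peptides, Pla2g15, a lysosomal phospholipase, Mgst1, a microsomal glutathione transferase, Cyp4f16 and Pparg, a nuclear receptor of fatty acid derivatives that defines alveolar macrophages. By class, 2 receptors were higher (Cysltr1 and Ptgir) and 2 lower (Fpr2 and Pparg), and 1 breakdown enzyme was higher (Hpgd) and 1 lower (Cyp4f16). Pparg is also 1 of the 7 lower alveolar macrophage markers given above, so it is counted in both lists.

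Hpgd was at 2427.5, 1896.4 and 2827.9 normalized counts in 2-week and 1725.3, 1399.5 and 2368.5 in 4-week MHCII-high cells. In MHCII-low cells it was at 906.2, 1211.8 and 959.7 at 2 weeks and 891.0, 713.7 and 927.6 at 4 weeks, and in the controls at 738.2 and 331.4. Every MHCII-high library exceeded every MHCII-low library. The log2 fold change over both times was 1.15 ± 0.19 (adjusted p = 0.000406), and this call held under all 22 alternatives run (adjusted p 2.7e-07 to 0.00597).

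Cysltr1 was at 830 to 1188 normalized counts in 2-week MHCII-high against 322 to 486 in 2-week MHCII-low cells, and at 539 to 1269 against 227 to 516 at 4 weeks, with no overlap at either time. The log2 fold change over both times was 1.22 ± 0.24 (adjusted p = 0.00264). Ptgir was at 264.0 to 449.2 normalized counts in 2-week MHCII-high, 85.0 to 160.8 in 2-week MHCII-low, 33.3 to 181.4 in 4-week MHCII-high and 3.4 to 20.6 in 4-week MHCII-low cells, and at 10.9 and 9.5 in the controls. Its log2 fold change over both times was 2.33 ± 0.54 (adjusted p = 0.00905). The markers of monocyte-derived or interstitial macrophages, dendritic cells and B lymphocytes given beside Alox5 differed in the same direction as Hpgd, Cysltr1 and Ptgir. The part of these cells in these 3 results was not tested.

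Fpr2 was at 1815 to 2914 against 3645 to 5616 normalized counts at 2 weeks and at 3114 to 3696 against 3899 to 5614 at 4 weeks (log2 fold change over both times -0.69 ± 0.14, adjusted p = 0.00369). Pla2g15 (-0.54 ± 0.11, adjusted p = 0.00353) and Mgst1 (-0.51 ± 0.12, adjusted p = 0.00779) were likewise lower in each MHCII-high library than in each MHCII-low library of the same time. With the mitochondrial rRNA share as a covariate, Hpgd alone of these 8 calls remained (log2 fold change 1.22, adjusted p = 0.00597). The other 7 kept their sign, with log2 fold changes of 1.03 for Cysltr1, 1.46 for Ptgir, -0.63 for Fpr2, -0.49 for Pla2g15, -0.45 for Mgst1, -0.40 for Cyp4f16 and -0.38 for Pparg (adjusted p 0.0706 to 0.32). The calls of Cyp4f16 (adjusted p = 0.0177) and Pparg (0.0268) were also lost without 1 library. For Cyp4f16 these were 2-week and 4-week MHCII-low replicate 3 (adjusted p 0.0503 and 0.0569). For Pparg they were 2-week MHCII-low replicate 1, 4-week MHCII-low replicates 2 and 3, 2-week MHCII-high replicates 1 and 2 and 4-week MHCII-high replicate 1 (0.0512 to 0.069).

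At single times fewer genes passed, 2 higher and 1 lower at 2 weeks (2.29% and 0.581% of all genes) and 3 higher and 1 lower at 4 weeks (1.96% and 0.535%). At 2 weeks Hpgd (log2 fold change 1.21, adjusted p = 0.0147) and Cysltr1 (1.32, 0.0383) were higher and Fpr2 (-0.89, 0.0155) lower. Without 1 library Hpgd was lost for MHCII-low replicate 1 and MHCII-high replicates 1 and 3, Fpr2 for MHCII-low replicate 1 and MHCII-high replicates 1 and 2, and Cysltr1 for any of the 6. All these 2-week calls were also lost without a filter and with the mitochondrial rRNA covariate. Cysltr1 was lost with edgeR and with TMM scaling factors too, and Hpgd with the GC trend removed. At 4 weeks Hpgd (1.09, 0.0301), Ptgir (3.02, 0.0351) and Pla2g2d, a secreted phospholipase (2.66, 0.0433), were higher and Pla2g15 (-0.62, 0.0366) lower. There Pla2g15 was lost without any of the 6 libraries, Hpgd without any except MHCII-high replicate 2, Pla2g2d without any except MHCII-low replicate 3, and Ptgir without MHCII-low replicate 1 or MHCII-high replicate 2 or 3. Every 4-week call was also lost without a filter and with the covariate. Hpgd and Ptgir were lost with TMM, limma-voom and only the groups compared in the fit. Hpgd was further lost with edgeR and the GC trend removed, Pla2g2d with edgeR and DESeq2, and Pla2g15 with only the groups compared.

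Against control, 2 of the 42 genes were higher in MHCII-low cells at 2 weeks and none lower (1.48% and 0.426% of all genes), and none passed at 4 weeks. Pla2g2d was at 199.1, 97.1 and 168.5 normalized counts at 2 weeks against 3.9 and 29.3 in the controls (log2 fold change 3.62 ± 0.78, adjusted p = 0.0131). Ptgir had a log2 fold change of 3.32 ± 0.85 (adjusted p = 0.0455). The Ptgir call was lost without any one of the 5 libraries. That of Pla2g2d was lost without control replicate 1 (adjusted p = 0.378) or 2-week MHCII-low replicate 1 or 3. With TMM scaling factors both calls were lost (adjusted p = 0.126 for Pla2g2d and 0.0941 for Ptgir). The same held for limma-voom (0.117 and 0.072) and for no filter (0.0509 and 0.0801). Pla2g2d was also lost with edgeR (0.0503) and with the mitochondrial rRNA covariate (0.063), and Ptgir with the GC trend removed (0.077). None of the 42 passed between 4 and 2 weeks at either MHCII level or in the interaction.

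**Figure D4:**
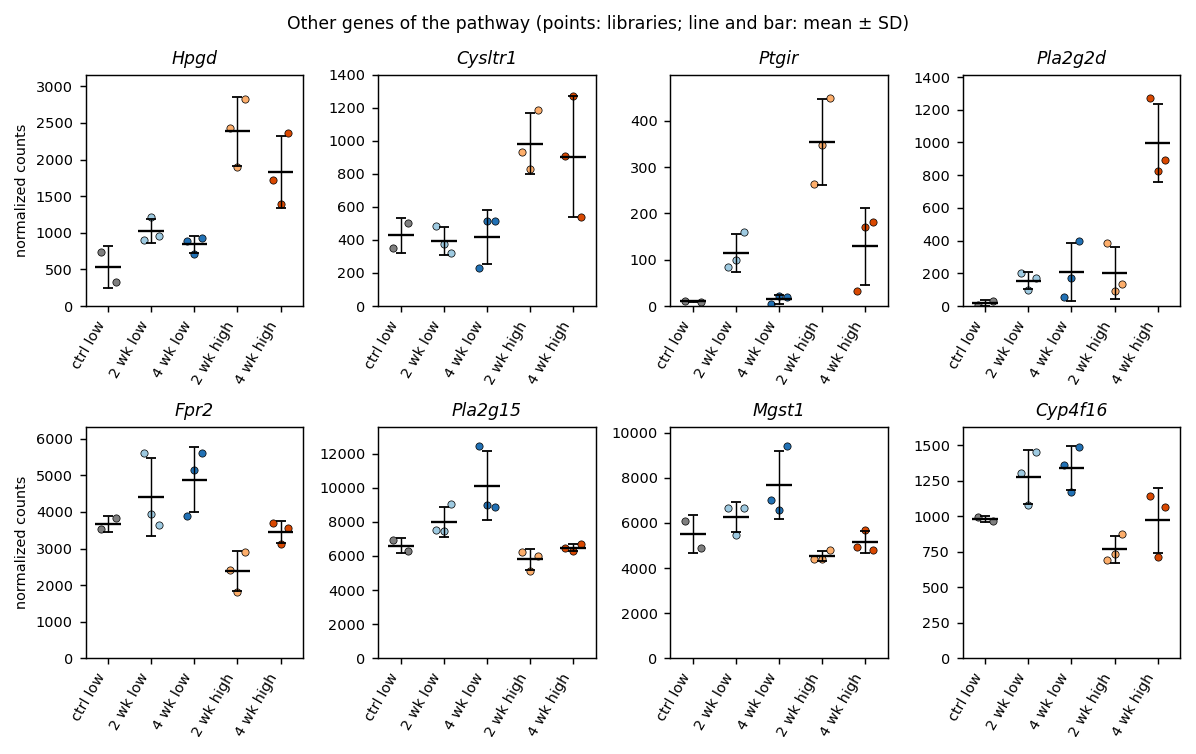
Normalized counts by group of the genes around the synthesis enzymes that passed a test, except Pparg; points are libraries, thick lines group means and bars the SD, with axes starting at 0. Hpgd and Cysltr1 are higher in MHCII-high than in MHCII-low cells of the same time, and Pla2g2d is highest in 4-week MHCII-high cells.

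Receptors of the products were read at unequal levels. The prostaglandin E2 receptors Ptger1 (574.4 to 1333.5 normalized counts), Ptger2 (648.0 to 1401.3) and Ptger4 (644.4 to 1493.6) were read in every library, whereas Ptger3 did not exceed 2.1. Pparg was at 5546.6 to 9603.1. The leukotriene B4 receptors Ltb4r1 (0 to 92.6) and Ltb4r2 (0 to 28.1), the thromboxane receptor Tbxa2r (0 to 27.9) and the prostaglandin D2 receptor Ptgdr2 (0 to 27.3) were low.

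At or near 0 were Ptgdr, the other prostaglandin D2 receptor (at most 0.8 normalized counts), Oxgr1 (0.6) and Ptgfr, the prostaglandin F receptor (12.1). Cysltr2, the second cysteinyl leukotriene receptor, was at 70.4 in 2-week MHCII-high replicate 2 and at most 2.6 elsewhere. Of these receptors, Cysltr1, Ptgir, Fpr2 and Pparg are the ones with a passed test, given above. Upstream, Pla2g4a, the cytosolic phospholipase that supplies arachidonate, was at 963.6 to 1931.5 and passed no test.

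Over the 14 libraries, the genes whose log2(value + 1) most resembled that of Alox5, among 10584 genes with a mean of at least 5, were Pqlc3 (Pearson r = 0.93) and Adcy3 (0.92). For Ptgs1 they were Atp6v1a, a subunit of the proton pump of lysosomes (r = 0.92), and Mmp19, a matrix metalloproteinase (0.89). Among the 10 synthesis genes themselves, Alox5ap and Ltc4s had the highest r (0.81), followed by Alox5 and Ltc4s (0.70), and the most negative r was that of Ltc4s and Alox15 (-0.72). These values describe libraries that share sort, depth and mitochondrial rRNA share.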

How the data were processed

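The authors deposited normalized counts per gene, a signal scaled per library, per the file headers; STAR, DESeq2 and mm10 are named without versions in the submitters' processing notes, while scale factor, annotation release and strand setting were not given in the sources used here. GC percent and total exon length per gene, and a mean normalized count that was not used, were also deposited by the authors. Per the labels' protocols, cDNA of bead-purified mRNA was amplified (NuGen Ovation V2) and tagged (Nextera XT) with no molecular identifiers, and 2 sorter models are named without saying which sample went through which.

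Values were whole multiples of 1 step per library (0.39 to 2.24 normalized counts, the worth of 1 read). Dividing by it left 99.99% to 100% of values whole within the file's rounding (0.05); within 0.1 of a step it was 78.6% in control replicate 1 and 100% in the others. No replicate pair agreed within sampling noise (mean chi-square per gene 70.3 to 559). Of 15592 genes on the chromosomes of the 10 synthesis genes, 96.4% had the span of GENCODE M21 (GRCm38).

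A gene was tested if 2 or more libraries held 10 or more normalized counts (17390 genes, all 10 synthesis genes among them). The test was on log2(value + 1) with limma 3.58.1 (trend, 1 coefficient per group, all 14 libraries, two-sided), in R 4.3.3. The added 1 shrinks the ratio of low values, but a library near 0 can widen the difference between group means on this scale, as for Alox15. P-values were adjusted by Benjamini-Hochberg within each of 8 comparisons, with a threshold of 0.05. Adjusted p-values in the text are limma's unless another tool is named; ± is the SE after a log2 fold change and the SD after a mean. The recovered reads were also tested with edgeR 4.0.16 and DESeq2 1.42.0, which called 1431 and 2122 genes over both times against limma's 1254. The script was tested on simulated data. The plan named edgeR for raw counts; the table holds normalized values.

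Other settings were TMM factors, limma-voom, a pseudocount of 5, no filter, a minimum of 50, the mitochondrial rRNA share as a covariate, a replicate block, only the groups compared in the fit and leaving out each library; removal of a GC trend was chosen after seeing the data. The 10 genes are named in every comparison, the pathway genes around them where they passed (at most 6 per comparison by p; Cyp4f16 was named after its values were seen), and receptors with their levels. The genes, lists, tests and settings were chosen with earlier results of these data known. Likeness was searched over genes with a symbol that is not a predicted-gene name. Intervals and floors cover counting or replicate error only.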

Additional observations from a re-analysis of the deposited data

How the results depend on the processing

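Over 48 single-gene results and 857 values under other settings, none changed sign, 734 kept their side of the threshold, 100 lost it and 23 gained it. Synthesis genes called: at 2 weeks (0 of 10) 1 with DESeq2; over both times (1 of 10) 4 with DESeq2, 2 with limma-voom, and 0 without a filter and 0 with the mitochondrial rRNA covariate; from 2 to 4 weeks in MHCII-low cells (0 of 10) 1 with DESeq2 and 1 with only the groups compared. Among all genes, the same settings called 1055 of 17390 at 2 weeks with DESeq2. Over both times they called 2122 with DESeq2, 1270 with limma-voom, 917 of 26247 without a filter and 500 with the covariate. From 2 to 4 weeks in MHCII-low cells they called 320 with DESeq2 and 213 of 14986 with only the groups compared. Leaving out 1 library gave 0 to 1 synthesis genes at 4 weeks, 0 to 2 over both times, 0 to 1 at 2 weeks against control and 0 to 1 from 2 to 4 weeks in MHCII-low cells. Of the 42 pathway genes around them, 3 were called at 2 weeks (7 with DESeq2, 6 with limma-voom, 0 without a filter, 0 with the covariate, 0 to 2 without 1 library). At 4 weeks 4 were called (2 each with edgeR, TMM and limma-voom, 0 without a filter, 0 with the covariate, 1 with only the groups compared, 0 to 2 without 1 library). Over both times 8 were called and 1 with the covariate. At 2 weeks against control 2 were called (4 with DESeq2, 1 each with TMM, limma-voom, the covariate and the GC trend removed, 0 without a filter, 0 to 1 without 1 library). With TMM and with limma-voom, the gene called was neither Pla2g2d nor Ptgir. At 4 weeks against control 0 were called (1 with DESeq2, 0 to 1 without 1 library). From 2 to 4 weeks 0 were called in MHCII-low cells (1 each with edgeR, DESeq2, a minimum of 50, the covariate and only the groups compared) and 0 in MHCII-high cells (2 with DESeq2, 1 each with TMM, limma-voom and only the groups compared, 0 to 1 without 1 library). The cause of these changes was not tested.

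Counts over all genes ranged, over all settings, from 203 to 1055 at 2 weeks (499 as reported), 214 to 911 at 4 weeks (434), 500 to 2122 over both times (1254), 127 to 665 at 2 weeks against control (332), 0 to 74 at 4 weeks against control (8), 95 to 320 and 64 to 638 from 2 to 4 weeks in MHCII-low (149) and MHCII-high cells (186), and 0 to 60 for the interaction (0).

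Libraries of the same number and time were not shown to be paired: the correlations of their deviations were 0.118, 0.117 and 0.008 at 2 weeks and 0.046, 0.068 and 0.043 at 4 weeks, and 4 of the 6 pairs correlated best with their own number. A replicate block moved the counts of calls from 499 to 487, 434 to 429 and 1254 to 1207. With the replicate block Alox5 over both times kept its call (log2 fold change -0.39, adjusted p = 0.0339), and it was again the only synthesis gene called. Depth limits Alox15 and the low receptors most: in the shallowest libraries 1 read is worth over 2 normalized counts.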

Other observations

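Genes of neighbouring steps that passed no test are given here as levels. Dpep2, a dipeptidase that turns leukotriene D4 into leukotriene E4, was at 5021.6 to 9356.9 normalized counts over the 14 libraries, and Ggt5, which turns leukotriene C4 into leukotriene D4, at 193.6 to 404.1. Ptges3, a further prostaglandin E synthase that is also the co-chaperone p23, was at 199.1 to 504.3 and Ptges2 at 46.3 to 186.9. The brain-type prostaglandin D synthase Ptgds did not exceed 10.8 and the prostacyclin synthase Ptgis did not exceed 19.1, while Ptgir, the receptor of prostacyclin, reached 449.2. The platelet-type lipoxygenase Alox12 was at 2.1 to 91.2, and Alox8 was at 0 in every library.

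The library with the highest Ptgs2 (796.0 normalized counts, 2-week MHCII-high replicate 1) also had the highest level of the prostaglandin transporter Slco2a1, at 1406.2 against 82.8 to 688.8 in the other 13 libraries. This was noticed after the values were seen and was not tested.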
